A study of Drosophila melanogaster with 4 samples.

Results

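The cells described here are those that the deposited cell table names GSC-like, for germline stem cell-like, in testis tumors of Drosophila melanogaster. They were chosen by that class name alone and numbered 10889 of 20618 cells. Of the other 4 classes of the table, 8261 cells were named CySC-like, for cyst stem cell-like, 624 spermatocyte, 515 somatic and 329 muscle. The tumors overexpressed the secreted ligand Unpaired (Upd), either in the germline with a nanos driver (Nanos-Upd, 2 libraries) or in somatic cyst cells with a traffic jam driver (TrafficJam-Upd, 2 libraries). The Nanos-Upd flies carried y[1], w[1118] and the P{hs70FLP} insertion, the driver GAL4::VP16-nanos.UTR over the responder UAS-Upd, and heterozygous for a + chromosome the reporter UAS-FRT-H3-GFP-FRT-H3-mKO. The TrafficJam-Upd flies carried w[1118], the driver traffic Jam-GAL4 over the responder UAS-Upd, and the same heterozygous reporter. All 4 libraries therefore carried GAL4, UAS-Upd and the dual-color histone H3 reporter, and no testis without Upd overexpression was part of the comparison. The tissue was pooled from many testes per tumor type, no age is given in the labels, and nothing in them says that the 2 libraries of a type came from separate dissections, so p-values measure only the spread between libraries.

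A fly testis holds its germline stem cells in a ring around a cluster of somatic hub cells. The hub secretes Upd, which activates the JAK-STAT pathway in the neighbouring germline and cyst stem cells, and the BMP ligands Dpp and Gbb act on the germline stem cells. A stem cell daughter that leaves the niche becomes a gonialblast, divides with incomplete cytokinesis under the control of bam and bgcn, and then enters the spermatocyte program, while paired cyst cells enclose it. Excess Upd keeps both lineages in an early, dividing state, which is why these tumors are used as a source of early germ cells.

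Unique molecular identifiers (UMIs) were summed over the cells of each class in each library, which gave 20 sums, and levels are given as CPM, the UMIs of a gene per 1000000 UMIs of the sum. Values are listed in the order Nanos-Upd replicate 1, Nanos-Upd replicate 2, TrafficJam-Upd replicate 1 and TrafficJam-Upd replicate 2 throughout. GSC-like cells numbered 2407, 5568, 1119 and 1795, or 52.2%, 61.2%, 34.5% and 48.9% of each library. Their sums held 11609609, 21386875, 5601331 and 7697446 UMIs, and the median cell had 4802, 3531, 5014 and 4081 UMIs. The sums of muscle cells were small, with 278549 to 308967 UMIs from 78 to 84 cells. The smallest was that of somatic cells in TrafficJam-Upd replicate 1, with 233141 UMIs from 60 cells. Levels in the small classes therefore carry more counting error. Nanos-Upd replicate 2 stood apart in that its non-germline sums and its spermatocyte sum held more germline RNA than those of most other libraries: the summed level of the 6 label markers in spermatocyte cells was 407 CPM there and 172 to 221 CPM in the other libraries. Across libraries, 35 cell barcodes of 20583 occurred in more than 1 library.

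The 6 genes that mark the class were high in GSC-like cells of all 4 libraries. vas (FBgn0283442, a protein-coding gene on the plus strand of chromosome arm 2L, 15061656 to 15074311 in BDGP6, the assembly also called dm6) encodes a germ granule RNA helicase and stood at 258, 291, 261 and 226 CPM. nos (FBgn0002962, 3R, 19157238 to 19160202, plus strand) encodes the translational repressor Nanos, which maintains germline stem cells, and stood at 176, 207, 240 and 139 CPM. ovo (FBgn0003028, X, 5048273 to 5070929, plus strand), a germline zinc finger transcription factor, stood at 276, 246, 225 and 178 CPM. In none of these 3 genes did a GSC-like library overlap with any of the 16 sums of the other classes, whose highest values were 91.4 CPM for vas, 99.2 CPM for nos and 73.1 CPM for ovo, all in spermatocyte cells of Nanos-Upd replicate 2. zpg (FBgn0024177, 3L, 6604366 to 6606032, minus strand), which encodes the germ cell innexin of gap junctions to the soma, stood at 182, 222, 182 and 140 CPM. stet (FBgn0020248, 3L, 1475438 to 1489547, minus strand), a rhomboid protease by which germ cells release EGF ligands to cyst cells, was the lowest of the 6 at 53.0, 45.5, 66.4 and 53.9 CPM. Drep2 (FBgn0028408, 2R, 9291856 to 9302821, plus strand), a member of the DNA fragmentation factor-related family, stood at 128, 143, 179 and 142 CPM. TrafficJam-Upd replicate 2 was the lowest GSC-like library for vas, nos, ovo and zpg but not for stet or Drep2.

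**Figure D1:**
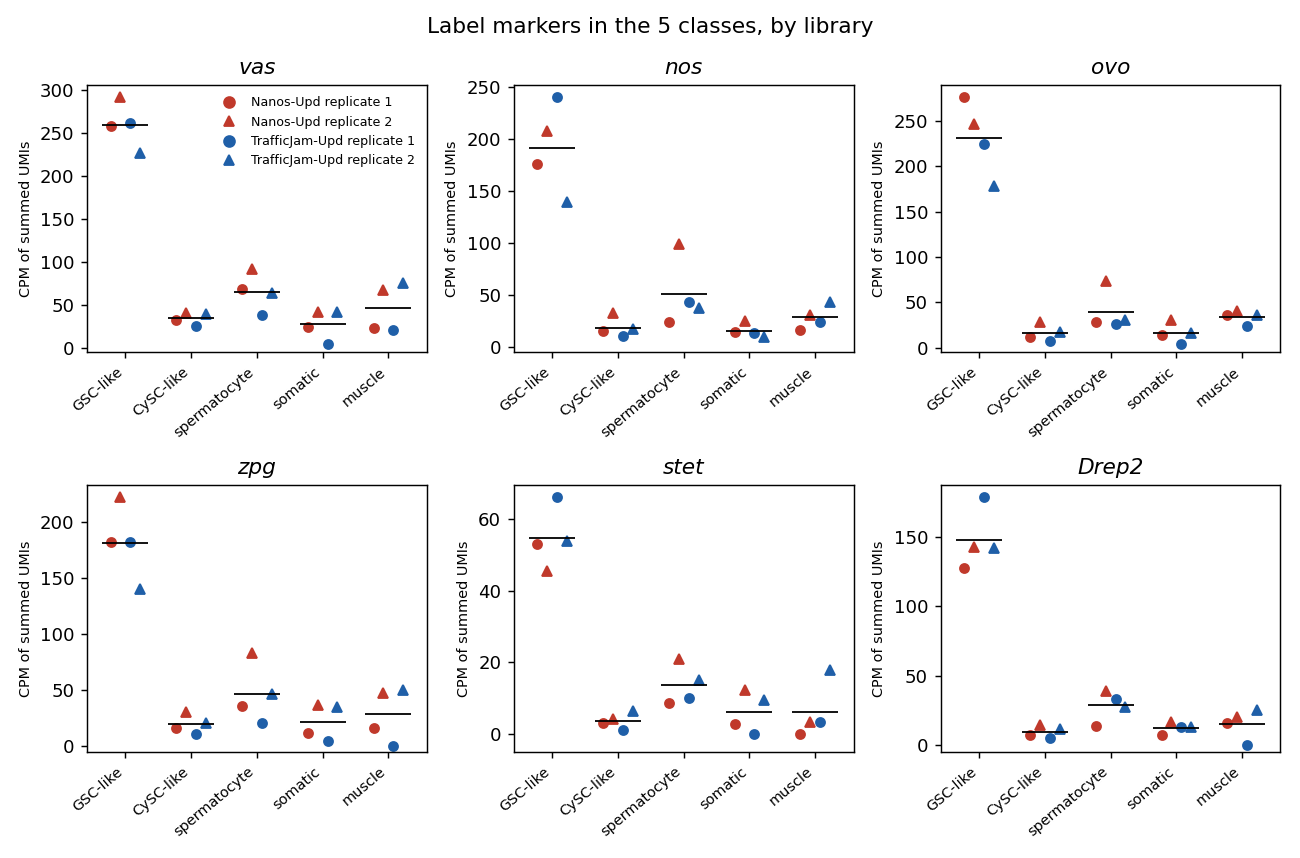
Level in CPM (linear axis) of each of the 6 label markers in the 5 classes. Each point is the sum of 1 class in 1 library, colored by tumor type, and lines are means of the 4 libraries. GSC-like points lie above all others for each gene, and vas runs from 226 to 291 CPM in GSC-like cells against 25.9 to 40.8 CPM in CySC-like cells.

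In CySC-like cells the same genes were present at low levels that moved together between libraries. vas stood at 32.6, 40.8, 25.9 and 39.5 CPM there, nos at 15.3, 32.2, 10.2 and 16.8 CPM, and ovo at 11.9, 27.8, 6.74 and 17.0 CPM. All 3 were highest in Nanos-Upd replicate 2, the library with the largest share of GSC-like cells. The reverse was seen for the 11 cyst lineage markers, whose summed level in GSC-like cells was 315, 560, 230 and 320 CPM against 4082 to 6533 CPM in CySC-like cells, again with the highest value in Nanos-Upd replicate 2. None of the 11 was at 0 in GSC-like cells. Of GSC-like cells, 33.6%, 44.9%, 23.1% and 23.0% were mixed, with UMIs of 2 or more early germline genes and also of 2 or more cyst lineage genes, and whether these are cell pairs or free RNA was not tested. The summed level of the 10 muscle markers ranged over 49.5 to 64.9 CPM in GSC-like cells, close to the CySC-like range of 47.2 to 57.5 CPM and far under the 21181 to 38020 CPM of muscle cells.

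Single cells were compared after each had been thinned at random to 2000 UMIs, which all cells could supply, so that depth was equal. At that depth vas was detected in 37.3%, 43.0%, 36.8% and 36.9% of GSC-like cells, and stet in 8.89%, 8.78%, 11.3% and 9.69%. None of the 6 label markers was seen in most cells at that depth. AGO3, of the early germline list, was detected in 84.4%, 90.4%, 85.7% and 75.3% of GSC-like cells. At least 3 of the 6 markers were detected in 22.9% (95% interval 21.2% to 24.6%), 25.5% (24.4% to 26.7%), 25.0% (22.5% to 27.7%) and 19.0% (17.2% to 20.9%) of GSC-like cells. The intervals are exact binomial ones and cover counting error only. The same was true of 0.238%, 0.729%, 0.0531% and 0.52% of CySC-like cells, a class named for another lineage, at the same depth; the source of these UMIs was not tested. In spermatocyte cells the shares were 0.803%, 6.6%, 0% and 1.71%, where 0 of 94 cells allows a share of up to 3.19% by 3 counts of the total and has an exact upper limit of 3.85%, and in somatic and muscle cells they were at most 1.28%. Every GSC-like library lay above every other sum. None of the 6 markers was detected in 17.4%, 13.3%, 15.1% and 23.1% of GSC-like cells at 2000 UMIs. With all UMIs of each cell, at least 3 markers were detected in 58.4%, 53.0%, 65.3% and 49.0% of them, so the share with few markers depends on depth.

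**Figure D2:**
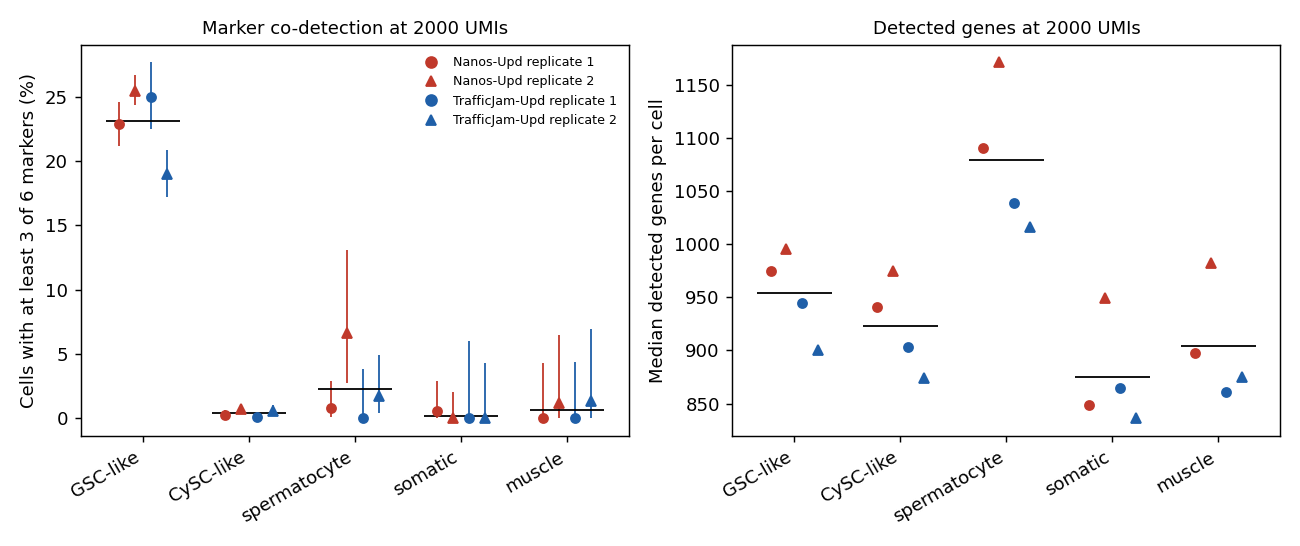
Per-cell measures at 2000 UMIs for each class and library: the percent of cells with at least 3 of the 6 label markers, with exact 95% intervals, and the median number of detected genes; horizontal lines are means of the 4 libraries. GSC-like libraries sit between 19.0% and 25.5%, above all other sums, while their median gene numbers of 900 to 995 lie below those of spermatocyte cells.

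Summed spermatocyte and spermatid genes were lower in the class than in spermatocyte cells, but not every single marker separated the classes. For example, aly was detected at 2000 UMIs in 1.74%, 1.85%, 3.93% and 3.45% of GSC-like cells. In spermatocyte cells its shares were 2.81%, 0%, 0% and 2.29%. bam, the switch factor for the transit-amplifying divisions, was detected at 2000 UMIs in 12.8%, 19.1%, 16.2% and 13.3% of GSC-like cells against 2.33% to 4.28% of CySC-like cells. In spermatocyte cells bam was detected in 0.803%, 9.43%, 2.13% and 4.0%. GSC-like cells with a bam UMI held nos in 29.0%, 31.7%, 33.1% and 29.0% of cells, and those without one in 28.9%, 33.4%, 37.3% and 24.8%. The difference in nos was of either sign across libraries, whereas tut was detected more often in cells with a bam UMI in 4 of 4 libraries (12.4%, 14.8%, 11% and 7.56% against 8.52%, 11.8%, 8.21% and 7.19%). vas was also detected more often and bgcn less often in them in 4 of 4 libraries, with no test made. The 15 spermatocyte genes summed to 390, 339, 311 and 251 CPM in GSC-like cells, to 56.0 to 168 CPM in CySC-like cells and to 1952 to 2908 CPM in spermatocyte cells. In muscle cells the list summed to 673, 613, 380 and 284 CPM, above GSC-like cells in each library. Of that list, bol was detected in 17.4% to 32.7% of GSC-like and 32.1% to 64.3% of muscle cells at 2000 UMIs. The 20 spermatid genes summed to 1236, 628, 327 and 463 CPM in GSC-like cells, which was below the 1580, 690, 454 and 659 CPM of CySC-like cells in each library. Mst87F, a sperm tail protein gene of that list, was detected in 33.2%, 19.1%, 11.2% and 17.9% of GSC-like and in 39.5%, 20.7%, 14.1% and 18.8% of CySC-like cells, and so was detected less often in GSC-like cells in each library. The cells called spermatocyte held 17277 to 40024 CPM of spermatid genes.

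Detected genes per cell, a measure that rests on no single gene, was slightly higher in GSC-like than in CySC-like cells. At 2000 UMIs the median was 975, 995, 945 and 900 genes in GSC-like cells and 941, 975, 903 and 874 in CySC-like cells. GSC-like cells were higher in 4 of 4 libraries by 30.5 ± 9.57 genes (SD, n = 4), with an exact two-sided sign-flip p of 0.125, the smallest that 4 libraries allow. The direction was the same at 1000 UMIs, with a mean of 13.8 genes, and without thinning, with 374 genes. At 2000 UMIs they were lower than spermatocyte cells in 4 of 4 libraries, with a mean difference of -125 ± 35.5 genes and the same exact p, but without thinning the differences were 273, -179, 221 and -79 genes. The same test gave a mean difference of 79.0 ± 34.4 genes against somatic and 49.8 ± 36.0 genes against muscle cells, and the p adjusted over the 4 comparisons was 0.125 for each, so none could pass 0.05. Median ribosomal UMIs were 31.6%, 29.3%, 33.8% and 36.6% in GSC-like cells, as deposited, and 10.6% to 18.8% in spermatocyte cells. The part of this difference in the gene numbers was not tested.

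Genes that led the class were ranked by the ratio of the lowest GSC-like library to the highest of the 16 other sums, with 1 CPM added to both. Of 4981 genes with a mean of at least 20 CPM in GSC-like cells, 1144 (23.0%) had their lowest GSC-like library above all other sums, and 35 (0.703%) by a ratio of at least 2. These ranks describe the class and are not a test, since its name may rest on the same genes. tej, which encodes the Tudor domain protein Tejas of the piRNA pathway, came first with 114, 114, 137 and 115 CPM in the class against at most 33.9 CPM elsewhere. Drep2 came next, and after it Mov10 at 104, 95, 137 and 89.4 CPM against at most 28.7 CPM. The long noncoding RNA lncRNA:CR46148 stood at 152, 122, 136 and 136 CPM against at most 41.3 CPM. For 12 of the 15 leading genes the highest other sum was a spermatocyte one, 10 times in Nanos-Upd replicate 2.

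Boot, which encodes the piRNA precursor export factor Bootlegger, stood at 30.9 to 44.8 CPM in the class against at most 10.8 CPM elsewhere. Oxp and HP1D3csd, both members of the heterochromatin protein 1 family, reached 234 to 315 CPM and 61.5 to 87.8 CPM, with at most 96.9 and 27.1 CPM elsewhere. Oxp (2R, 17633797 to 17634167) and its neighbour rhi (2R, 17628491 to 17633516), which encodes the piRNA cluster protein Rhino, both lie on the minus strand within the annotated span of CG10936 (2R, 17604951 to 17639138), itself a leading gene with 38.6 to 58.2 CPM. How reads were divided among these overlapping genes is not given in the sources used here, so the 3 values may share reads. c(3)G, the transverse filament gene of the synaptonemal complex, stood at 173 to 211 CPM against at most 75.7 CPM, and klu, a zinc finger transcription factor gene, at 75.7 to 114 CPM against at most 28.7 CPM. gNacalpha, a germline paralog of a nascent chain-associated factor, was the most abundant of the 15 at 588 to 787 CPM.

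**Figure D3:**
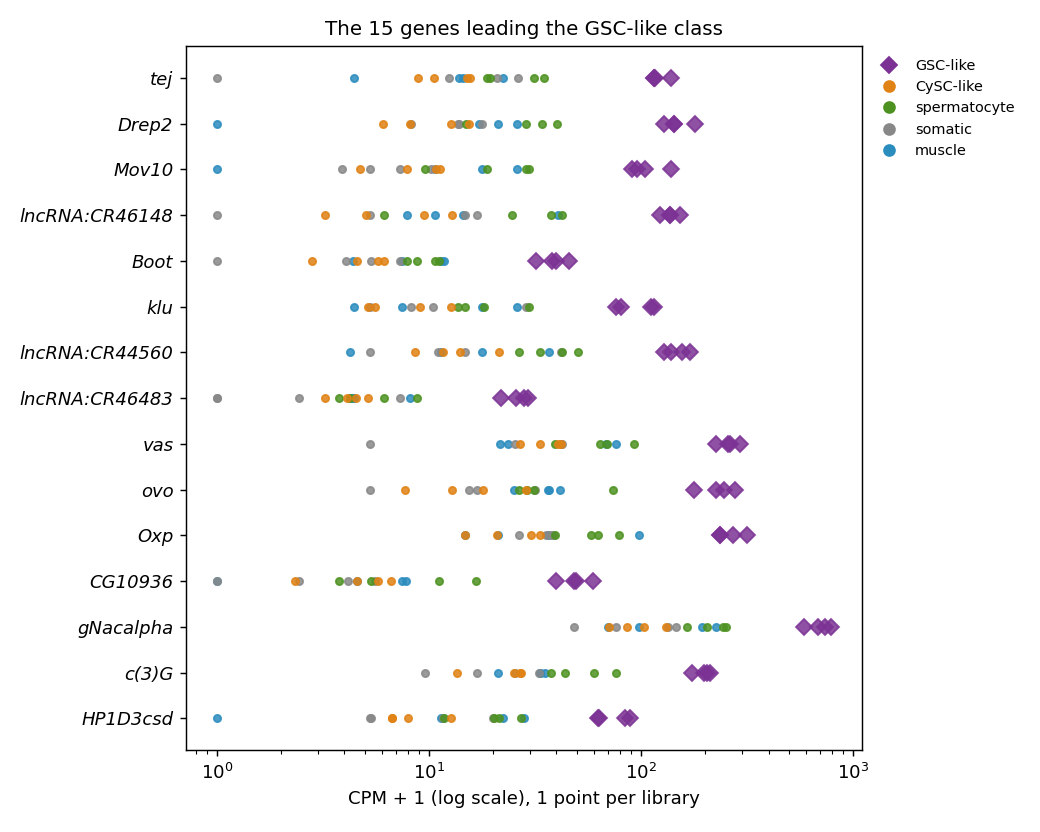
Level in CPM (log axis, CPM + 1) of the 15 leading genes in all 20 sums, ordered by the ratio of the lowest GSC-like library to the highest other sum. The ratio falls from 3.29 for tej to 2.22 for HP1D3csd, and each GSC-like point lies to the right of all points of the other classes.

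Of the 35 genes with a ratio of at least 2, 31 were protein-coding out of 4902 (0.632%) and 4 were noncoding out of 63 (6.35%). They lay on the X (5 of 792 genes), 2L (6 of 895), 2R (9 of 1001), 3L (8 of 985) and 3R (7 of 1228). Among 8923 genes, those whose log2 level followed the mean of the 6 markers most closely over the 20 sums were gNacalpha (Pearson r 0.982), AGO3 (0.981), ATPsynepsilonL (0.978), klu (0.975) and RpL22-like (0.975). AGO3 encodes a cytoplasmic Argonaute of the piRNA amplification loop, and RpL22-like is a germline paralog of a ribosomal protein gene. These correlations run over sums that share libraries and follow the class differences, so they are a description only.

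Against CySC-like cells, the class to which GSC-like cells were most alike, 6464 of 8909 genes (72.6%) passed the threshold of 0.05 on the adjusted p, 3128 (35.1%) higher and 3336 (37.4%) lower. Each comparison was fitted on 8 sums with edgeR's quasi-likelihood test, the library as a block and Benjamini-Hochberg adjustment, and describes how steady a difference was over the 4 libraries, not whether the classes are real. The correlation of log2 levels over 8929 genes within a library was 0.84 to 0.89 with CySC-like, 0.68 to 0.80 with somatic, 0.63 to 0.78 with muscle and 0.34 to 0.55 with spermatocyte cells. Sums of the small classes held far fewer UMIs, and the part of depth in these correlations and in the counts of called genes was not tested. The median log2 difference of all genes was -0.06. The 14 early germline genes all passed as higher, with a median of 2.90 on the log2 scale. They ran from tut at 1.92 ± 0.28 (SE, adjusted p 0.00145) to Drep2 at 3.64 ± 0.30 (adjusted p 0.000271). That list includes label markers, among them Drep2, ovo and stet. The class name may rest on such genes, so the result for this list is not a separate test of the class. Of the genes higher in the class and averaging 50 CPM or more, lncRNA:CR46148 differed most, at 122 to 152 CPM against 2.25 to 11.9 CPM, a log2 difference of 4.08 ± 0.39 (adjusted p 0.000867). lncRNA:CR43264 was the most abundant of the genes with large differences, at 3394, 2094, 5333 and 8309 CPM against 275, 190, 245 and 593 CPM.

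All 11 cyst lineage genes passed as lower than in CySC-like cells, with a median of -4.76. tj, the Maf transcription factor gene of cyst cells, stood at 13.4, 32.1, 10.5 and 20.4 CPM against 676, 628, 414 and 400 CPM. CadN, which encodes N-cadherin, stood at 12.9 to 64.6 CPM against 522 to 1103 CPM, and Wnt4, a secreted Wnt ligand gene, at 22.5 to 58.1 CPM against 880 to 1355 CPM. The groups lay far apart for all 3, and the log2 differences were -5.15, -5.09 and -5.12. GSC-like levels of all 3 were highest in Nanos-Upd replicate 2, the library with the most mixed cells. Mixed cells are defined in part by these genes, so the share of mixed cells is not a separate observation. Of all genes averaging 50 CPM or more, CG34398 (-5.34), rau (-5.17) and kon (-5.16), which are not in that list, differed most, and CG14984 (-5.12) and Slc45-1 (-5.09) were close to them.

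Genes of germline fate and of the piRNA pathway were mostly, but not all, higher in GSC-like than in CySC-like cells. Of 25 germline fate genes, 16 were higher and 6 lower, against 35.1% and 37.4% of all genes. orb and bru1, which encode RNA-binding translational regulators, differed by 3.38 and 3.13. pgc, which silences transcription in embryonic germ cells, was near its detection limit at 9, 10, 2 and 9 UMIs per GSC-like sum and was lower by -3.46, while chinmo, a stem cell maintenance gene of cyst cells, stood at 696, 804, 760 and 566 CPM against 1004, 1192, 938 and 796 CPM (-0.79). Of 34 piRNA and germ granule genes tested, 23 were higher and 6 lower, with a median of 0.73. qin (3.24), tej (3.06) and rhi (3.03) differed most, and aub, the cytoplasmic partner of AGO3, stood at 398 to 478 CPM against 38.2 to 79.5 CPM. The genes below CySC-like cells included fs(1)Yb (-1.5), known for its role in the somatic piRNA pathway of the ovary, piwi (-0.66), whose nuclear protein acts in germline and soma, and papi (-0.57).

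Signalling genes showed mixed or inverse differences from CySC-like cells. Of 15 BMP pathway genes, 2 were higher and 12 lower than in CySC-like cells, with a median of -1.32, against 35.1% and 37.4% of all genes. The 2 that were higher, Med (0.73) and sax (0.59), encode the co-Smad and a type I receptor. Those lower included the ligand genes gbb (16.3 to 22.5 CPM against 57.7 to 73.1 CPM) and mav (-3.08), the receptor genes wit (-2.62) and tkv (-1.34), the co-receptor gene dally (-2.58) and the feedback inhibitor gene Dad (-2.05). Of 13 JAK-STAT genes, 3 were higher (23.1%) and 7 lower (53.8%). Socs36E, a target and feedback inhibitor of the pathway, stood at 89.1, 94.6, 72.1 and 109 CPM against 1164, 1156, 1158 and 1015 CPM, a log2 difference of -3.95. Stat92E, the transcription factor gene of the pathway, was lower by a log2 difference of -1.62, while Ptp61F, a phosphatase gene that dampens signalling, was higher (1.5). upd2 and upd3 stayed at or under 0.0468 CPM in GSC-like cells. Against spermatocyte cells, 6 of 14 BMP genes were higher and 3 lower, and 7 of 13 JAK-STAT genes were higher and 1 lower. The medians there were 0.78 and 0.71, where 32.6% of all genes were higher and 33.2% lower. Against somatic and muscle cells the BMP medians were -1.13 and -1.05, and the JAK-STAT medians -0.67 and -0.07. The medians over all genes were 0.12 and 0.18 in these comparisons.

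Of 21 genes of germline-soma contact, 5 were higher and 15 lower than in CySC-like cells, against 35.1% and 37.4% of all genes. Besides stet (3.57) and zpg (2.92), the Notch ligand gene Dl was higher, at 25.7, 31.2, 34.6 and 28.1 CPM against 2.77, 5.56, 2.70 and 2.57 CPM. The somatic sides of these contacts were low: Egfr, the receptor of the ligands released by stet, stood at 8.10, 21.0, 5.53 and 12.9 CPM against 211 to 359 CPM, and Inx2, the somatic innexin, at 9.82 to 35.2 CPM against 266 to 314 CPM. shg, which encodes E-cadherin, stood at 64.7 to 82.7 CPM against 281 to 372 CPM. Against spermatocyte cells, 9 of 20 contact genes were higher and 5 lower, against 32.6% and 33.2% of all genes. The list median was 0.77 there, -2.05 against somatic and -1.09 against muscle cells.

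Replication and mitosis genes were higher in GSC-like than in CySC-like cells in most cases. Of 57 DNA replication genes, 50 were higher and 3 lower, with a median log2 difference of 0.91, against 35.1% of all genes higher. PolD1, a catalytic subunit gene of DNA polymerase delta, stood at 28.2 to 45.6 CPM against 8.89 to 13.6 CPM (1.39), and Orc1, of the origin recognition complex, at 23.9 to 35.9 CPM against 6.32 to 11.2 CPM (1.39). PCNA2 differed most (1.60), at 5.05 to 7.58 CPM against 1.14 to 3.16 CPM. The 3 lower genes were E2f1 (-0.85), Cdc45 (-0.67) and Top1 (-0.48), so the transcription factor and part of the replicative helicase did not follow the rest of the list. Of 44 mitotic genes, 35 were higher and 2 lower, with a median of 0.84. glu, a condensin subunit gene, and pav, a kinesin gene of the cytokinetic midzone, differed by 1.78 and 1.45. stg, which encodes the mitotic Cdc25 phosphatase, stood at 270, 199, 262 and 242 CPM against 73.9, 85.1, 58.4 and 71.3 CPM (1.43), whereas CycB differed by 0.37. CycD (-0.60) and Cdk4 (-0.30), which act together in growth and cycle entry, were the 2 lower genes. The call of Cdk4 was lost under 5 alternatives, among them leaving out Nanos-Upd replicate 2 or TrafficJam-Upd replicate 1.

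Of 59 chromatin genes, 32 were higher and 8 lower, with a median of 0.35, against 35.1% of all genes higher and 37.4% lower. BigH1, the germline linker histone gene, stood at 63.2 to 90.2 CPM against 7.51 to 15 CPM (2.71). ash2 (-2.09), HP1b (-1.43) and the Polycomb group gene Psc (-1.43) were lowest. Of 24 fusome and cytokinesis genes, 9 were higher and 10 lower, close to the shares over all genes, with pav, tum (0.95) and Septin4 (1.69) above and Septin1 (-1.62), sqh (-1.56) and beta-Spec (-1.28) below CySC-like cells. Glycolysis genes were lower in 9 of 12 cases, with a median of -1.27, led by Ald1 (-2.55), Tpi (-2.46) and Hex-A (-2.36). Only Pgi was higher among them (0.44), and 2 were higher with RLE size factors. Spermatocyte genes were higher in 10 of 12 tested, among them aly (2.29) and tomb (2.69), both of testis-specific transcription complexes, and the translation regulator gene bol (2.17). The count fell to 5 in 1 fit over all 20 sums and to 6 with the replicate number as a block. Of 17 spermatid genes tested, 15 were lower and none higher, and none was called without the library block or with the replicate number as a block.

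**Figure D4:**
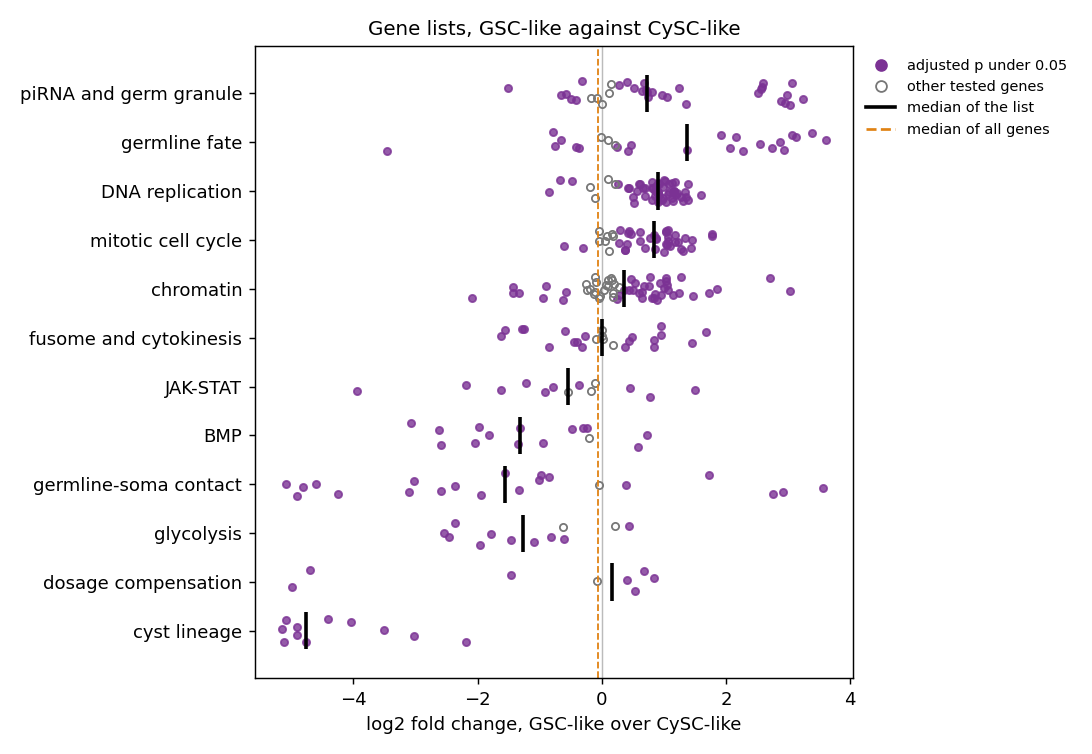
Log2 difference of GSC-like over CySC-like cells for each tested gene of 12 lists. Filled points passed an adjusted p of 0.05, black bars are list medians and the dashed line is the median of all genes at -0.06. Most DNA replication genes lie to the right of 0 around their median of 0.91, and all cyst lineage genes lie far to the left.

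Against spermatocyte cells, 5974 of 9079 genes (65.8%) passed, 2957 (32.6%) higher and 3017 (33.2%) lower, with a median over all genes of 0.22. The median of all genes moved to 0.12 with RLE size factors, so small differences in this comparison depend on scaling. The 4 comparisons share the GSC-like sums and are not independent of each other. All 6 label markers were higher, with ovo at 2.49 ± 0.26 (adjusted p 2.24e-05) and Drep2 at 2.29 ± 0.25 (adjusted p 2.85e-05). stg stood at 31.3 to 66.6 CPM in spermatocyte cells and was higher in the class (2.25), whereas twe, the meiotic Cdc25 gene, was lower (-0.99). DNA replication genes were higher in 50 of 57 cases, with a median of 1.44, among them PolA2 (2.14), of DNA polymerase alpha, and elg1 (2.04), which unloads the sliding clamp. Cdc7 (-2.12) and E2f2 (-0.80) were the 2 lower ones.

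Mitotic genes were higher than in spermatocyte cells in 29 of 44 cases, chromatin genes in 42 of 58 and piRNA genes in 25 of 34. Of all genes, 32.6% were higher and 33.2% lower. The medians of these lists were 1.01, 1.08 and 1.14, against 0.22 over all genes. Fusome and cytokinesis genes were higher in 15 of 24 cases and lower in 2, with a median of 0.8. orb did not pass (-0.30, adjusted p 0.185) and bru1 was lower (-0.94), at 470 to 1201 CPM against 1107 to 1656 CPM, so spermatocyte cells held both at levels no lower than the lowest GSC-like library. bam was higher in GSC-like cells (1.59). All 19 spermatid genes tested and 12 of 14 spermatocyte genes were lower, with medians of -5.86 and -1.78. betaTub85D, the testis beta-tubulin gene, differed by -6.21 and sa, a testis-specific TFIID-associated factor gene, by -4.83. Of the genes averaging 50 CPM or more, Z600 lay furthest below, at 0.357 to 2.15 CPM against 164 to 217 CPM (-7.48 ± 0.35), followed by CG34173 (-7.01) and the transcription factor gene gcm (-6.99), at 0.390 to 1.64 CPM against 82.7 to 118 CPM.

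Against somatic cells, 4577 of 8071 genes (56.7%) passed, 2376 (29.4%) higher and 2201 (27.3%) lower. Mov10 (3.88 ± 0.32, adjusted p 7.97e-09), lncRNA:CR46148 (3.83) and ovo (3.47) lay furthest above among those averaging 50 CPM or more. DNA replication genes were higher in 49 of 57 cases with none lower and a median of 1.36, and piRNA genes were higher in 25 of 34 cases with none lower. Mcm10, a helicase loading factor gene, differed by 2.81 and twe by 2.34. The cyst lineage list was lower in all 11 cases, led by eya (-5.54), and glycolysis genes in 11 of 12, led by Ldh (-4.06) and Ald1 (-3.57). sim, a bHLH transcription factor gene, ranged over 0.357 to 4.25 CPM in the class against 147 to 184 CPM in somatic cells (-7.03).

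Against muscle cells, the class with the fewest cells, 3931 of 8029 genes (49.0%) passed, 2089 (26%) higher and 1842 (22.9%) lower. All 6 label markers were higher, with Drep2 at 2.91 ± 0.37 (adjusted p 4.8e-06). esg, a Snail family gene that maintains testis stem cells, stood at 197, 179, 149 and 115 CPM against 10.4 to 23.7 CPM (2.88). Mitotic genes were higher in 35 of 44 cases with none lower, and DNA replication genes in 48 of 57 with E2f1 lower. The muscle list was lower in all 10 cases with a median of -9.82, and Mhc, the muscle myosin heavy chain gene, differed by -9.72. Dpp10 stood at 0.390 to 1.25 CPM against 1045 to 1996 CPM (-11.57). CG32365 was higher in GSC-like than in CySC-like and spermatocyte cells, but its level of 102 to 147 CPM lay below the 287 to 570 CPM of muscle cells.

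Genes on the X supplied a smaller share of the UMIs of nuclear-encoded genes in GSC-like than in CySC-like cells. In males, the roX RNAs and the MSL complex raise X-linked transcription in somatic cells. Genes on the X held 15.5%, 14.8%, 15.5% and 16.2% of these UMIs in GSC-like cells, counted in whole cells without mitochondrial genes. The shares were 18.8%, 17.4%, 18.9% and 19.8% in CySC-like and 11.7%, 12.9%, 12.2% and 14.0% in spermatocyte cells. The values did not overlap between these 3 classes. The mean difference was -3.25 ± 0.474 percentage points against CySC-like, 2.79 ± 0.88 against spermatocyte, -3.73 ± 0.773 against somatic and -5.52 ± 2.13 against muscle cells (SD, n = 4). The direction was the same in 4 of 4 libraries each time, and the exact two-sided sign-flip p was 0.125, the smallest possible, before and after adjustment. lncRNA:roX1 stood at 63.0, 158, 50.9 and 91.2 CPM in the class, whereas CySC-like values were 2009, 2057, 1716 and 1322 CPM. lncRNA:roX2 stood at 28.8, 67.1, 22.5 and 62.0 CPM against 955 to 1148 CPM. The log2 differences were -4.71 and -4.99. Spermatocyte cells were low as well, with 108 to 415 CPM of roX1 and 65.9 to 191 CPM of roX2. Somatic and muscle cells held 1450 to 2148 and 1253 to 2068 CPM of roX1. The source of the roX RNA in GSC-like sums and its part in the X share were not tested. msl-2, the male-limited subunit gene, was lower (-1.46), while mof (0.84), msl-3 (0.67) and msl-1 (0.54) were higher than in CySC-like cells.

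Between tumor types, GSC-like cells differed in few of the listed genes. In the fit of the 4 GSC-like sums, 295 of 9466 genes (3.12%) passed, 194 (2.05%) higher and 101 (1.07%) lower in Nanos-Upd, and the 2 groups of libraries did not overlap for 5654 genes (59.7%). Leaving out a library changed the count, to 533 when that was Nanos-Upd replicate 1, to 1490 for Nanos-Upd replicate 2 and to 684 for TrafficJam-Upd replicate 1. upd1 (FBgn0004956, X, 18305354 to 18309291, minus strand), the gene overexpressed, stood at 64.3, 58.6, 1.79 and 5.33 CPM in GSC-like cells. The groups did not overlap, and the log2 difference was 3.88 ± 0.37 (adjusted p 0.00171), higher in the tumor type whose labels give a germline driver. In CySC-like cells upd1 stood at 4.24, 10.9, 77.4 and 65.8 CPM, the reverse order, and over all libraries the classes did not differ past the threshold (-0.54 ± 2.27, adjusted p 0.847). The difference between classes itself differed between tumor types for 132 of 9787 genes (1.35%), positively for 77 (0.787%) and negatively for 55 (0.562%), and H3-GFP was among them. The H3-GFP reporter, driven by the same GAL4, stood at 59.9, 78.2, 2.68 and 4.03 CPM in GSC-like cells (4.17 ± 0.27, adjusted p 3.32e-07), and was detected at 2000 UMIs in 9.68%, 13.8%, 0.536% and 0.724% of them.

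None of the 14 early germline, 34 piRNA, 44 mitotic or 59 chromatin genes passed between tumor types with edgeR, where 3.12% of all genes passed. At an unadjusted p under 0.05 there were 2, 3, 5 and 8 of them, against 2443 of all 9466 genes (25.8%), and DESeq2 called the mitotic kinase gene aurB and the chromatin genes BEAF-32 and His2Av, named here after their values were seen. The log2 differences of the label markers ran from -0.44 for stet (adjusted p 0.169) to 0.23 for ovo (adjusted p 0.493). Of 13 JAK-STAT genes only upd1 passed. Socs36E differed by -0.15 ± 0.22 (adjusted p 0.702) and Stat92E by 0.11 ± 0.19 (adjusted p 0.754), although the source of Upd was the germ cells in one tumor type and the cyst lineage in the other. chinmo (0.03 ± 0.20, adjusted p 0.94) and bam (-0.08 ± 0.23, adjusted p 0.865) did not pass either. A p that misses the threshold does not show equal levels, and 2 libraries per group limit what could pass.

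Genes that were higher in Nanos-Upd GSC-like cells included a pair of glycolysis genes. Eno, which encodes enolase, stood at 364, 256, 85.5 and 72.6 CPM (1.83 ± 0.22, adjusted p 0.000657), and Ald1, which encodes aldolase, at 66.6, 62.0, 21.6 and 25.2 CPM (1.30 ± 0.20, adjusted p 0.00331). The other 10 glycolysis genes did not pass. lncRNA:Hsromega, a heat shock-inducible noncoding RNA, stood at 4223, 3652, 1481 and 705 CPM (1.71), and its call was lost at 3000 UMIs per cell and without mixed cells. Msp300, CG4836, CG12699, DIP-alpha, lncRNA:CR44833 and CG42342 were higher by 1.30 to 1.70, with calls lost for Msp300 without mixed cells and for CG4836 and CG12699 at 3000 UMIs per cell. Of these, lncRNA:CR44833 overlaps ovo on the opposite strand, and ovo itself did not pass. Of 18 spermatid genes, soti (17.1, 8.37, 1.43 and 3.51 CPM), djl and Mst98Ca were higher, none was lower and 15 did not pass. Of 13 spermatocyte genes, betaTub85D (63.2, 33.8, 11.8 and 11 CPM) was higher, aly (8.70, 9.40, 18.9 and 18.1 CPM) and nht (4.74, 3.60, 10.7 and 23.9 CPM) were lower and 10 did not pass, where 2.05% of all genes were higher and 1.07% lower. The summed spermatid level was also highest in Nanos-Upd replicate 1 in CySC-like cells, at 1580 CPM, and its part in these calls was not tested.

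Genes that were lower in Nanos-Upd GSC-like cells were led by CG1894, at 156, 138, 897 and 963 CPM (-2.81 ± 0.21, adjusted p 1.95e-06). RpS14b, a ribosomal protein gene, stood at 389, 340, 796 and 986 CPM (-1.45), whereas its near-identical copy RpS14a stood at 1890, 1780, 1410 and 1490 CPM and did not pass (0.18, adjusted p 0.542). Reads that match both copies may have been split, so the RpS14b difference is uncertain. eIF4E3 (125, 139, 259 and 307 CPM) and eIF3f2 (58.1, 88.8, 139 and 144 CPM), paralogs of translation initiation factor genes, were lower by log2 differences of -1.25 and -1.10. Sec61gamma, a translocon subunit gene, was lower at 143, 133, 287 and 330 CPM (-1.31), as were CG32259, CG14757 and lncRNA:CR44330. The call of eIF3f2 was lost without Nanos-Upd replicate 1 and that of lncRNA:CR44330 without TrafficJam-Upd replicate 2. Among replication genes only Sld5, of the replicative helicase, passed (-0.77, adjusted p 0.045). The flies of the tumor types also differed in the y allele and the heat shock FLP insertion, so driver and background cannot be told apart.

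**Figure D5:**
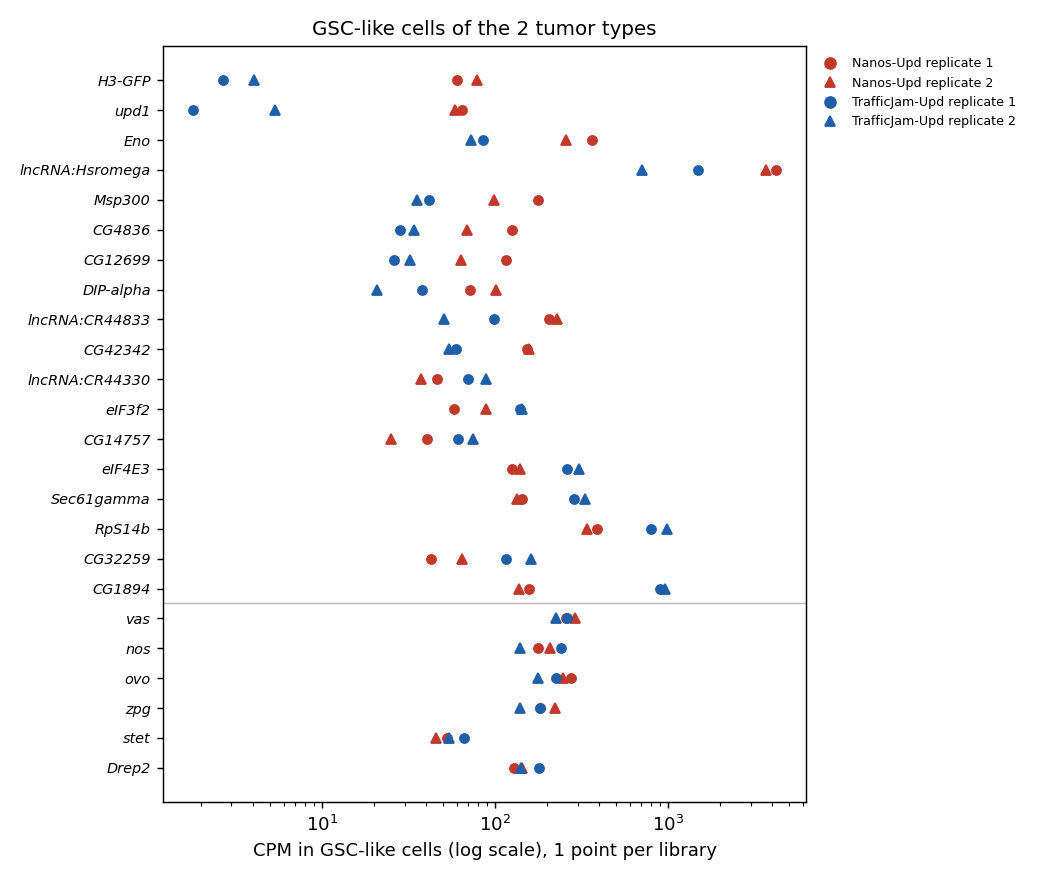
Level in CPM (log axis) in the 4 GSC-like sums of upd1, H3-GFP, the label markers and the genes that differed most between Nanos-Upd and TrafficJam-Upd. upd1 falls from 58.6 to 64.3 CPM in Nanos-Upd to 1.79 to 5.33 CPM in TrafficJam-Upd, and CG1894 runs the opposite way, from 138 to 156 CPM up to 897 to 963 CPM.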

How the data were processed

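Dissociated tumors were loaded for 3' droplet sequencing of single cells (10x Genomics), per the labels' protocols. The submitters' processing notes name Cell Ranger 7.0.0, Seurat 5.0.3 and the dm6 build. The authors deposited raw UMI counts per gene and cell, with the class of each cell its percent of mitochondrial and ribosomal UMIs, and coordinates of a UMAP embedding, scores that were not used here. How classes were assigned and whether doublets were removed is not given in the sources used here, and no doublet caller was run. The deposited counts summed to the deposited total in 20618 of 20618 cells, and UMIs per cell ran from 2200 to 7499. Symbols are those of the count table. Positions are from Ensembl release 115, matched for 17515 of 17558 features by identifier.

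Counts were summed per class and library and tested in R 4.3.3 with edgeR 4.0.16, using TMM, filterByExpr and a robust quasi-likelihood fit. The threshold was a Benjamini-Hochberg adjusted p of 0.05 over all genes tested. Class comparisons used 8 sums with the library as a block, tumor types within the class 4 sums, and their interaction 8 sums with libraries nested in type. DESeq2 1.42.0 was an alternative. Thinning, shares and figures used scipy 1.17.1, numpy 2.4.6, matplotlib 3.10.9 and pandas 2.3.3 under Python 3.11.15. The fits were tested on simulated counts with 200 changed genes.

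The members and gene lists were chosen with earlier results of these data known. Named genes were the 6 label markers, upd1, H3-GFP, and per comparison the 6 called genes that rose or fell most (8 against CySC-like and between tumor types) at an average of at least 50 CPM, with the same direction in every library or, between tumor types, no overlap. They also included the 15 leading genes, the 5 most like the markers, and, against CySC-like cells, the 3 called members of a list with the most extreme change either way. Other genes of the lists were picked as examples after their values were seen. Alternatives were no filter on low counts, DESeq2, RLE size factors, each library left out, a minimum of 3000 UMIs per cell, no mixed cells, no library block, 1 fit over all 20 sums, the replicate number as a block, and 1000 UMIs or no thinning.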

Additional observations from a re-analysis of the deposited data

Results flagged for a closer look

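For 10 of the named genes the difference between GSC-like and CySC-like cells itself differed between the tumor types, by the interaction term of edgeR's quasi-likelihood fit on 8 sums, in which 132 of 9787 genes (1.35%) passed. Values are the log2 difference in Nanos-Upd minus that in TrafficJam-Upd. Eno, CG42342, lncRNA:Hsromega and Sec61gamma had been named for their difference between tumor types in the same GSC-like sums. The others, except H3-GFP, had been named for class differences in these data, so the p-values follow a selection and are not a separate test. H3-GFP had the largest, 7.84 ± 0.32 (adjusted p 3.53e-09), with 59.9, 78.2, 2.68 and 4.03 CPM in GSC-like and 4.08, 10.1, 103 and 74.1 CPM in CySC-like cells. upd1 had a value of 7.12 ± 0.85 in the same direction, but did not pass in this fit (adjusted p 0.204). It passed under 8 of the alternatives run, so its call depends on the setting.

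Eno had an interaction of 1.66 ± 0.19 (adjusted p 5.86e-07): its CySC-like levels lay within a narrow range of 176 to 214 CPM, while its GSC-like levels lay above them in Nanos-Upd and below them in TrafficJam-Upd. CG42342 had a value of 1.35 ± 0.18 (adjusted p 7.23e-06), with 153, 158, 59.8 and 54.2 CPM in GSC-like and 223, 263, 238 and 239 CPM in CySC-like cells. Ald1 had a value of 0.93 ± 0.19 (adjusted p 0.00475), mav of 1.22 ± 0.24 (adjusted p 0.00428) and lncRNA:Hsromega of 0.79 ± 0.16 (adjusted p 0.00475).

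Negative values were found for CG32365 (-1.05 ± 0.22, adjusted p 0.00819), esg (-0.88 ± 0.21, adjusted p 0.0267), Sec61gamma (-0.81 ± 0.18, adjusted p 0.0137) and lncRNA:CR43264 (-0.67 ± 0.17, adjusted p 0.042). esg stood at 197, 179, 149 and 115 CPM in GSC-like cells, with CySC-like values of 28.4, 36.4, 11.8 and 14.6 CPM.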

How the results depend on the processing

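Counts of called genes against spermatocyte, somatic and muscle cells stayed within 1.5 times of the values above under all alternatives run. Against CySC-like cells the exception was 1 fit over all 20 sums, with 4305 genes in place of 6464. Between tumor types the count of 295 moved to 1154 with no filter on low counts, 528 with DESeq2, 147 at a minimum of 3000 UMIs per cell and 601 without mixed cells, and ran from 312 to 1490 when each library was left out. For the interaction, 132 genes became 54 with DESeq2, 68 at 3000 UMIs and 305 without mixed cells, and 77 to 280 with a library left out. The cause of these moves was not tested. The share of GSC-like cells with at least 3 markers, a mean of 23.1% over libraries, was 5.93% at 1000 UMIs and 56.4% without thinning. No named gene changed direction where its difference passed the threshold in the main fit or in the alternative. For the interaction only upd1 and H3-GFP were followed through the alternatives, so how steady the other flagged interactions are was not checked. Changes of sign where neither passed were not counted, and upd1 and H3-GFP against CySC-like cells did not pass in the main fit. Of 1180 values of named genes against CySC-like cells, 26 fell short of the threshold, mostly those of Cdk4, fzo, Mlc2, betaTub85D and the spermatid genes. H3-GFP against spermatocyte cells lost its call under 6 alternatives.

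Nothing in the labels says that the replicate numbers pair the samples. Deviations of same-numbered GSC-like sums had a correlation of -0.17, which cannot settle this with 2 libraries per tumor type. With the replicate block the tumor type count was 552 and the interaction count 6. A crossed pairing, chosen after seeing the data, gave 2484 genes, 1405 higher and 1079 lower in Nanos-Upd. With 2 libraries per tumor type, and small sums for the muscle, somatic and spermatocyte classes, low genes had little power.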
